A study of Mus musculus with 4 samples.

Results

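The expression of 9 genes of the YAP/TEAD pathway, out of 56393 genes in the count table, was examined in a mouse podocyte line under a control or a Jaml hairpin, without and with added glucose. The members were taken by gene symbol: the co-activators Yap1 and Wwtr1 (TAZ), their DNA-binding partner Tead1, the kinase Lats2, the scaffold genes Amotl2 and Ajuba, and the target genes Ccn1, Ccn2 (formerly Cyr61 and Ctgf) and Ankrd1. All 9 had a mean count above 50 over the libraries, the minimum for entering the comparisons, as did 14187 genes in all.

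In the Hippo pathway, MST kinases activate the LATS kinases, which phosphorylate YAP and TAZ and keep them in the cytoplasm. Unphosphorylated YAP and TAZ enter the nucleus and bind TEAD factors at target genes such as Ccn1, Ccn2 and Ankrd1. Cell shape, actin tension and cell contacts act on the same switch, and in podocytes, whose foot processes bear mechanical load on the glomerular capillary, YAP is known for a role in cell survival. The activity of YAP and TAZ is set largely by phosphorylation and location, which mRNA levels do not show.

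The RNA came from the conditionally immortalised line MPC, a single cultured cell line, sequenced as 4 libraries. Every culture had been differentiated for 7 days at 37 °C after interferon-gamma was withdrawn. The groups were cells with a control hairpin (sh-NC), cells with that hairpin given D-glucose to 40 mmol/L for 24 h (sh-NC/HG), cells with a hairpin directed at Jaml (sh-JAML), and cells with the Jaml hairpin given the same glucose (sh-JAML/HG). The glucose level of the basal medium and an osmotic control are not given in the labels. Each group had 1 library, so ratios between libraries carry a counting interval and no test. Depth was 79330461 to 94341975 estimated counts per library, and a member's smallest count was 2449. Jaml had a count of 0 in all 4 libraries, which leaves the hairpin labels without a check by the targeted gene. The podocyte marker Tcf21 was at 0 in every library, Nphs1 had at most 35 counts and Ptpro at most 4, whereas Synpo (172 to 247 CPM), Cd2ap (219 to 305), Nes (394 to 620) and Actn4 (683 to 820) were abundant, and 8 of 12 podocyte markers passed the count minimum. Of 9 tubule markers 5 passed it, among them Lrp2 (233 to 421 CPM) and Cdh16 (438 to 738 CPM), while Slc34a1 and Umod were at 0 and Krt8 and Krt18 were below it. In bulk RNA, fewer cells of a type and less RNA per cell cannot be told apart.

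TEAD factors bind DNA through a short motif, and the members' upstream sequences are shown because the pathway acts on its targets through it. The core TEAD motif, GGAATG, was searched on both strands in the 250 bases upstream of each start in RefSeq's promoter sequences (build GRCm38.p6). Of the 7 members with an entry, 6 held at least 1 match (85.7%), against 3880 of 27025 genes in all (14.4%) and 12.7% of the genes past the count minimum that had an entry. Lats2, with 2 windows, held none. Ccn2 and Tead1 had no entry, so their upstream sequences were not searched. Ankrd1 and Ajuba held 2 matches each, and Yap1, Wwtr1, Ccn1 and Amotl2 held 1. Each match is printed below with 10 bases on either side, written 5′ to 3′ so that the motif, in capitals, reads forward.
Yap1, chr9:8004722-8004747, minus strand: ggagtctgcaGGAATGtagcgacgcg
Wwtr1, chr3:57576031-57576056, minus strand: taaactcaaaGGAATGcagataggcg
Ccn1, chr3:145650073-145650098, plus strand: aaacatctcaGGAATGttggttggcg
Ankrd1, chr19:36120039-36120064, minus strand: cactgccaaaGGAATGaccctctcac
Ankrd1, chr19:36119952-36119977, minus strand: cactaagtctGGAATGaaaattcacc
Amotl2, chr9:102717729-102717754, minus strand: tgctatgccaGGAATGtgagagtttc
Ajuba, chr14:54577832-54577857, plus strand: ggggcactgtGGAATGtatccatcaa
Ajuba, chr14:54577810-54577835, plus strand: gtttacagttGGAATGcgcggagggg

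The motif lay on the gene's own strand in Yap1, Wwtr1 and Ankrd1 and on the opposite strand in Ccn1, Amotl2 and Ajuba. Its first base stood 65 bases before the start in Amotl2, 103 in Ccn1, 141 in Yap1, and 136 or 170 in Wwtr1, which has 2 annotated starts. In Ankrd1 the matches began 210 and 123 bases before the RefSeq start, and in Ajuba 186 and 164 bases before it. GENCODE starts Ankrd1 upstream of RefSeq, so that its annotated first exon overlaps the Ankrd1 window. The Amotl2 window likewise overlaps an annotated Amotl2 exon. So does the Wwtr1 window whose match begins 170 bases before the start, with a Wwtr1 exon. The Yap1 window overlaps an exon of another gene model, Gm45494. The whole upstream windows of Ccn1 and Ajuba, which overlap no annotated exon, show the match in its setting. They are written on the gene's strand, so the motif appears as its reverse complement in capitals.
Ccn1, chr3:145649986-145650235, minus strand: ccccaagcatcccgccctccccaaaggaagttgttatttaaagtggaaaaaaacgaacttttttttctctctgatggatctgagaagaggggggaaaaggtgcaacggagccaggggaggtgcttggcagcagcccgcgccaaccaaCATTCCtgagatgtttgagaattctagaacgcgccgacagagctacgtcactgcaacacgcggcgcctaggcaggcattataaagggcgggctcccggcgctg
Ajuba, chr14:54577662-54577911, minus strand: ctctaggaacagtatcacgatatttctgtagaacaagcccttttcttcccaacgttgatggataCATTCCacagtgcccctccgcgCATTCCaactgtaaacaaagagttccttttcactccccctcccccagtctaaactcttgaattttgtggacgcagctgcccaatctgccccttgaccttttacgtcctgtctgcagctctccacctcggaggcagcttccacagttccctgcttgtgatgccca

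Of a wider published set of YAP/TAZ targets without the 9 members, 3 of 11 genes with an entry held the motif (27.3%). The AP-1 motif TGANTCA, which is often found beside TEAD motifs, was in none of the 7 members' windows and in 7.82% of all genes' windows. The CArG box bound by serum response factor was in none of them either, and in 1.62% of all genes. No member's window held more than 1 of the 3 kinds of motif. A match describes letters in this window, not a bound site.

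**Figure D1:**
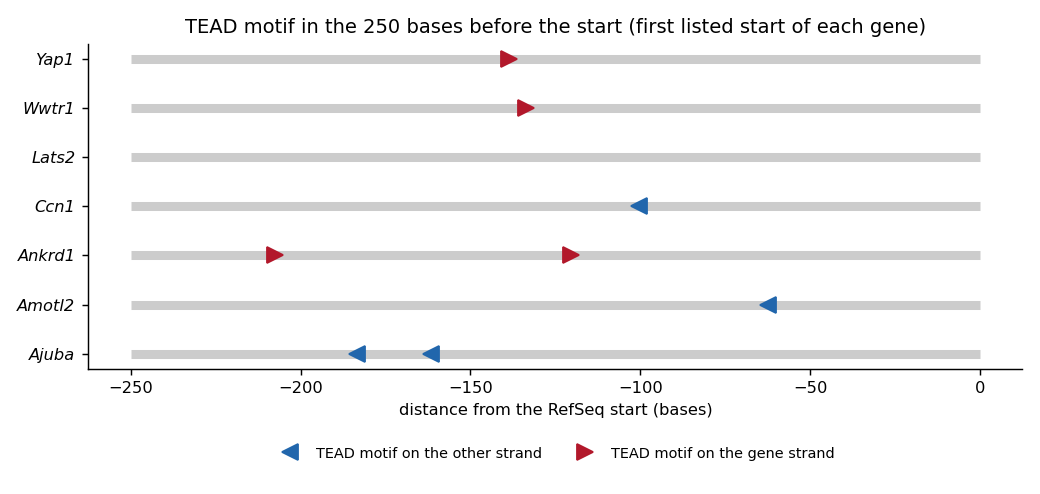
Positions of the core TEAD motif in the 250 bases before the RefSeq start (x axis, bases from the start, which is 0) of each member with an entry, using the first listed start of each gene. Arrowheads pointing right lie on the gene's strand and those pointing left on the other strand, and 6 of 7 genes hold at least 1, with none in Lats2.

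The co-activators were well expressed, and Wwtr1 differed less between libraries than Yap1. Per kilobase of exon, Wwtr1 (chromosome 3, 57455649 to 57575910, minus strand, mm10) stood at 90.7, 93.7, 84.8 and 86.7 TMM-scaled CPM in sh-NC, sh-NC/HG, sh-JAML and sh-JAML/HG, where CPM are counts brought to a common library total with edgeR's TMM factors. Sets of 4 levels follow this order of libraries throughout. Yap1 (chromosome 9, 7931999 to 8004596, minus strand) stood at 18.1, 21.1, 17.3 and 14.9, so TAZ transcripts exceeded YAP transcripts in all 4 libraries. Not per length, Wwtr1 read 434, 448, 405 and 414 CPM, a highest-over-lowest ratio of 1.10. Neither glucose pair nor hairpin pair moved it by more than 0.11 on the log2 scale, and its 2 sh-JAML libraries could not be separated by counting error. Yap1 read 168, 195, 160 and 138 CPM. It was 1.16-fold higher with glucose under the control hairpin (exact 95% counting interval 1.11 to 1.22) and 1.17-fold lower with glucose under the Jaml hairpin (1.11 to 1.23). The widest Yap1 gap was between the glucose-exposed libraries, 1.42-fold lower with the Jaml hairpin (1.35 to 1.49).

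Tead1, which encodes a member of the TEAD family that recruits YAP and TAZ to DNA, was lower with the Jaml hairpin at both glucose conditions. It lies on chromosome 7 from 112679318 to 112906807 (plus strand) and was the lowest member per kilobase, at 3.42, 3.34, 2.25 and 2.61 CPM. Its levels were 46.4 and 45.3 CPM in sh-NC and sh-NC/HG, and 30.6 and 35.4 CPM in sh-JAML and sh-JAML/HG, so both control-hairpin libraries lay above both Jaml-hairpin libraries. The Tead1 ratio was 1.52-fold lower at basal glucose (1.37 to 1.69) and 1.28-fold lower under glucose (1.16 to 1.41). The other TEAD genes lay closer together at basal glucose. Tead2 stood at 144, 138, 143 and 131 CPM, Tead3 at 54.1, 55.1, 53.8 and 53.7 CPM, and Tead4 at 26.8, 22.0, 22.2 and 26.0 CPM. Per kilobase in sh-NC, Tead2, Tead3 and Tead4 stood at 30.0, 8.05 and 7.44 CPM, all above Tead1 at 3.42. Vgll4, whose product competes with YAP for TEAD, stood at 83.6, 71.4, 85.1 and 90.4 CPM. Vgll3, another TEAD cofactor, stood at 36.9, 33.2, 23.8 and 24.5 CPM, and like Tead1 was lower in both Jaml-hairpin libraries, by 1.55-fold at basal glucose (1.38 to 1.74). Vgll1 and Vgll2 were below the count minimum.

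Lats2 encodes a kinase that phosphorylates YAP and TAZ and is itself a YAP target. On chromosome 14 from 57689662 to 57758388 (minus strand), it read 93.9, 80.9, 73.8 and 115 CPM, lowest in sh-JAML and highest in sh-JAML/HG. With the Jaml hairpin it was 1.56-fold higher under glucose (1.46 to 1.67), whereas with the control hairpin it was 1.16-fold lower (1.09 to 1.24). Of its exon bases, 42.4% are shared with a same-strand gene model, Gm49361, which held 53, 0, 401 and 291 counts, and the counts cannot tell the overlapping exons apart. Summing both genes gave log2 ratios of -0.23 and 0.59 for the control-hairpin and Jaml-hairpin glucose pairs, against -0.22 and 0.64 for Lats2 alone. In the hairpin pairs the sum gave -0.26 at basal glucose and 0.56 under glucose, against -0.35 and 0.51. The paralog Lats1 stood at 82.6, 70.6, 80.8 and 80.2 CPM.

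The scaffold members had small ratios. Amotl2, which encodes an angiomotin protein that holds YAP at junctions, lies on chromosome 9 from 102716672 to 102733418 (plus strand) and read 688, 696, 582 and 607 CPM. Both Jaml-hairpin libraries lay below both control-hairpin libraries, by 1.18-fold at basal glucose (1.15 to 1.21) and 1.15-fold under glucose (1.12 to 1.17). The glucose log2 ratios of Amotl2 were at most 0.06. Amot stood at 236, 149, 167 and 200 CPM and was 1.59-fold lower with glucose under the control hairpin (1.52 to 1.66), while Amotl1 stood at 186, 227, 185 and 195 CPM, so the angiomotin genes did not share 1 pattern. Ajuba encodes a LIM-domain protein that binds LATS kinases at junctions. It lies on chromosome 14 from 54567472 to 54577558 (minus strand) and read 333, 269, 281 and 291 CPM, with sh-NC above the other 3 libraries. The other LIM-domain relatives with the outermost glucose ratios under the control hairpin were Zyx, at 320, 210, 285 and 265 CPM, and Lpp, at 210, 361, 194 and 211 CPM, on opposite sides of zero.

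The CCN genes and Ankrd1 were highest in the untreated control library. Ccn2, the matricellular growth factor also called CTGF, lies on chromosome 10 from 24595442 to 24598683 (plus strand) and read 342, 138, 183 and 182 CPM. Glucose under the control hairpin went with a 2.48-fold lower level (2.38 to 2.59), and the Jaml hairpin without glucose with a 1.87-fold lower one (1.8 to 1.95). Under the Jaml hairpin, Ccn2 with and without glucose could not be told apart (log2 ratio 0.00), and sh-JAML/HG lay 1.32-fold above sh-NC/HG (1.26 to 1.39). Of its exon bases, 23.2% are shared with the opposite-strand model Gm15270, which held 251, 82, 116 and 122 counts, and the sum of both genes gave the same log2 ratio of -1.31 in the control-hairpin glucose pair.

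Ankrd1, a muscle-associated ankyrin repeat protein and a standard YAP readout, followed the same order at its ends. It lies on chromosome 19 from 36111961 to 36120099 (minus strand) and read 230, 108, 148 and 160 CPM, highest in sh-NC and lowest in sh-NC/HG. The ratio was 2.12-fold lower under glucose with the control hairpin (2.02 to 2.23), and 1.08-fold higher with the Jaml hairpin (1.03 to 1.14). At basal glucose it was 1.55-fold lower with the Jaml hairpin (1.48 to 1.63). Ankrd23, the other measured gene of that ankyrin family, stood at 4.81, 4.90, 4.88 and 4.84 CPM, level within counting error, with 78.2% of its exon bases shared with Gm42417, and Ankrd2 was below the count minimum.

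Ccn1, the matricellular protein also called CYR61, was the most abundant member per kilobase, at 453, 369, 291 and 340 CPM. It lies on chromosome 3 from 145646976 to 145649981 (minus strand) and read 914, 744, 588 and 687 CPM before division by length. Here sh-JAML and not sh-NC/HG was the lowest library, 1.55-fold below sh-NC (1.52 to 1.59). Glucose went with a 1.23-fold lower level under the control hairpin (1.2 to 1.25) and a 1.17-fold higher level under the Jaml hairpin (1.14 to 1.2). Ccn4 stood at 152, 111, 102 and 109 CPM and Ccn5 at 9.69, 5.55, 5.64 and 6.52 CPM, so sh-NC was the highest library for all 4 measured CCN genes, as it was for 21.3% of all genes. Ccn3 and Ccn6 were below the count minimum.

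**Figure D2:**
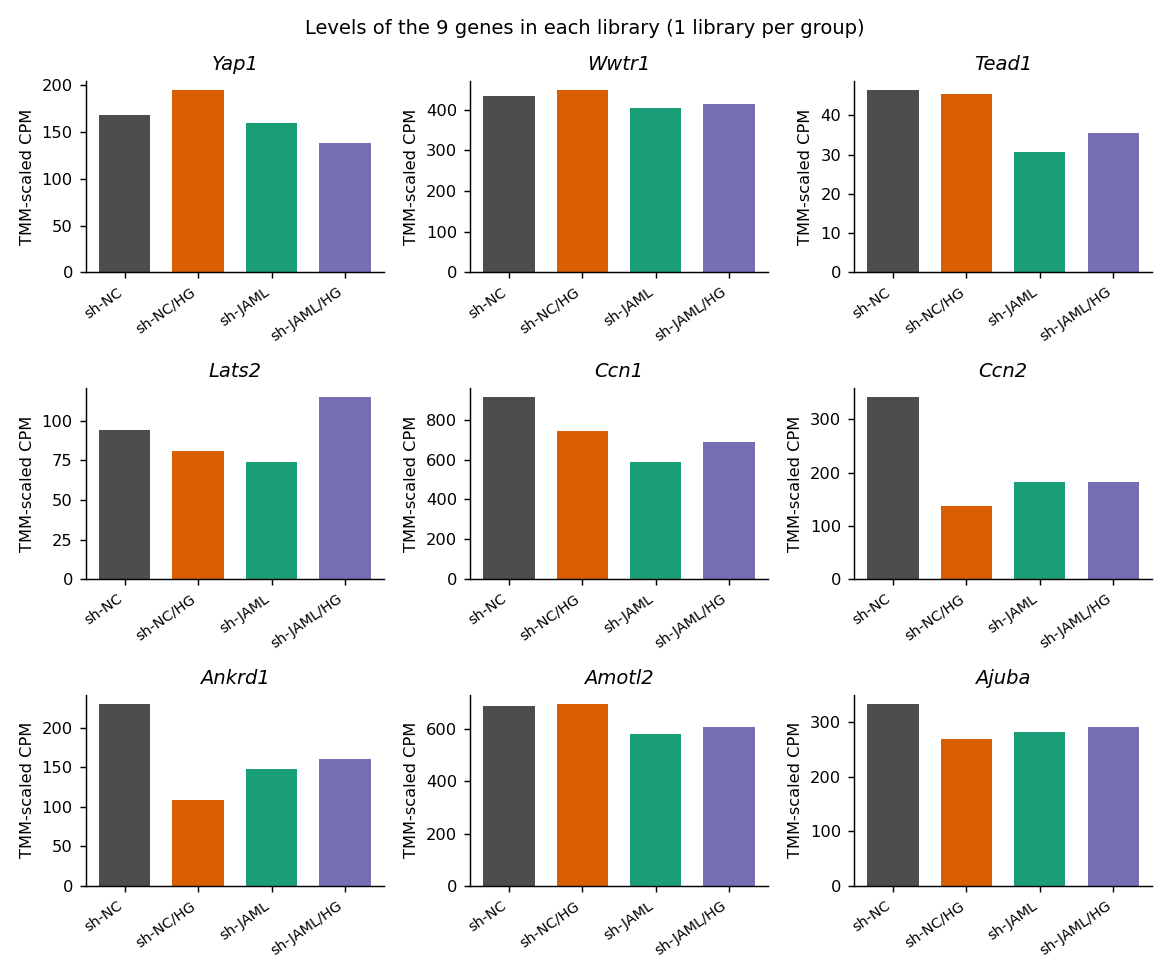
Bars give the TMM-scaled CPM of each member in the 4 libraries, 1 panel per gene with its own vertical axis from 0 and no error bars because each group had 1 library. Ccn2 and Ankrd1 are highest in sh-NC and lowest in sh-NC/HG, Ccn1 is lowest in sh-JAML, and Wwtr1 is nearly level.

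With glucose under the control hairpin, 2 of 9 members, Ccn2 and Ankrd1, were at least 2-fold lower and none as far above. Of all 14187 genes, 3.27% were that much lower and 4.65% that much higher. Among the 9675 genes whose mean count reached 1000, 1.54% were that much lower. The members' median log2 ratio was -0.22, with 3 above and 6 below zero (49.8% of all genes were below), against a median of 0.00 over all genes. Between the Jaml-hairpin libraries no member was 2-fold apart (2.88% of all genes were), 7 lay above zero (49.9% of all genes did) and 2 below, and the median was 0.06. Lats2 alone passed 1.5-fold there, as did 3.57% of all genes in that direction.

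The Jaml hairpin at basal glucose went with a lower level of all 9 members, where 49.6% of all genes, and 51.1% of those whose mean count reached 1000, had a ratio below 1. The median log2 ratio was -0.35, which is the value of Lats2 (-0.26 with Gm49361 added), beside 0.00 over all genes and a 5th percentile of -0.51. No member was 2-fold apart (2.71% of all genes were), and 4 of 9, Tead1, Ccn1, Ccn2 and Ankrd1, were at least 1.5-fold lower, as were 3.9% of all genes and 1.41% of the better counted ones. The Tead1 ratio was near that threshold, with a counting interval of 1.37 to 1.69. Under glucose the direction was mixed, with 4 members above and 5 below zero (49.7% of all genes were below), a median of -0.11 and none 2-fold apart (7.59% of all genes were). The sh-NC library enters both the basal hairpin pair and the control-hairpin glucose pair, so a high reading in that 1 library lowers both ratios. It was the highest library for 5 members, Tead1, Ccn1, Ccn2, Ankrd1 and Ajuba, as against 21.3% of all genes, and the lowest for none. The glucose-exposed control library was the lowest for 3 members, Ccn2, Ankrd1 and Ajuba, and for 36.4% of all genes. Conversely, sh-JAML was the lowest for 5 members, Wwtr1, Tead1, Lats2, Ccn1 and Amotl2, where it was lowest for 20.2% of all genes.

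**Figure D3:**
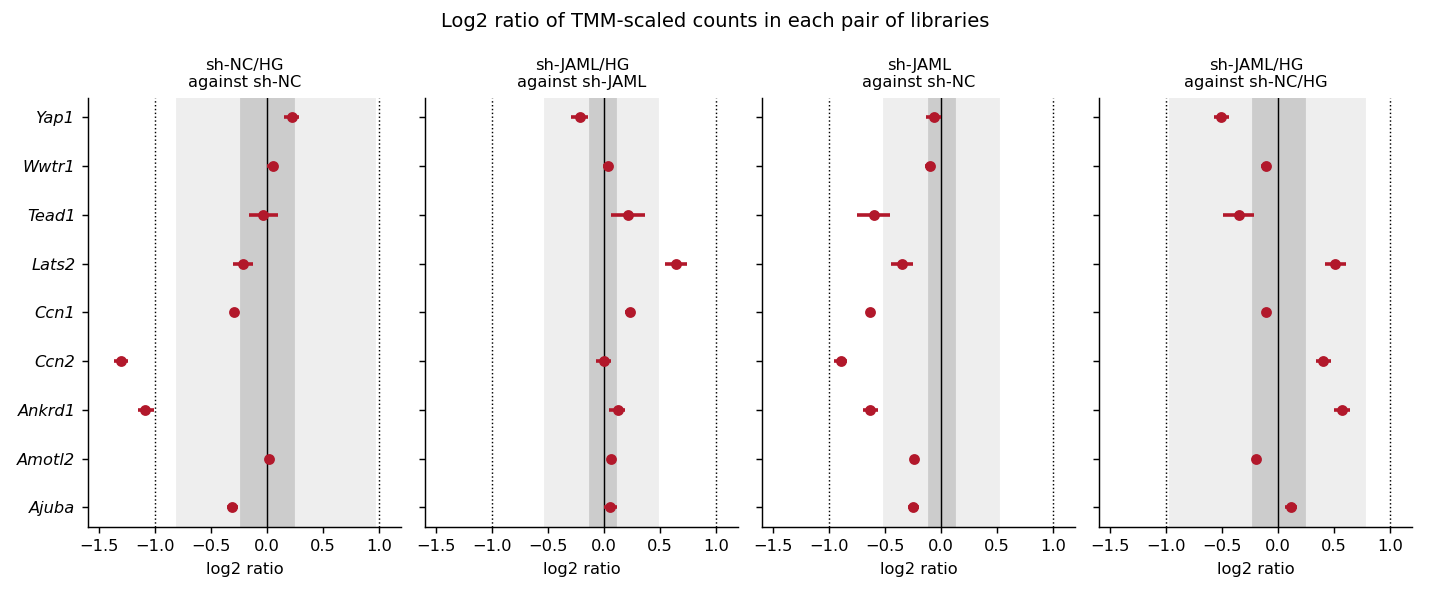
Log2 ratios of the 9 members (points, with exact 95% counting intervals as bars) in the 4 pairs of libraries, over bands that span the quartiles (dark) and the 5th to 95th percentile (light) of all genes, with dotted lines at 2-fold. All 9 lie below zero for sh-JAML against sh-NC, and Ccn2 and Ankrd1 lie beyond the 2-fold line for sh-NC/HG against sh-NC.

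The glucose ratios of the members differed between hairpins. The log2 ratio under the control hairpin minus that under the Jaml hairpin was -1.31 for Ccn2 (counting interval -1.39 to -1.22), -1.20 for Ankrd1 (-1.30 to -1.10) and -0.86 for Lats2 (-0.99 to -0.73). It was -0.52 for Ccn1, -0.36 for Ajuba, -0.25 for Tead1 and 0.44 for Yap1, and within counting error of zero for Wwtr1 (0.02). Yap1 was the only member whose glucose ratio was positive under the control hairpin and negative under the Jaml hairpin. With 1 library per group this difference between hairpins could not be tested against the spread between cultures.

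**Figure D4:**
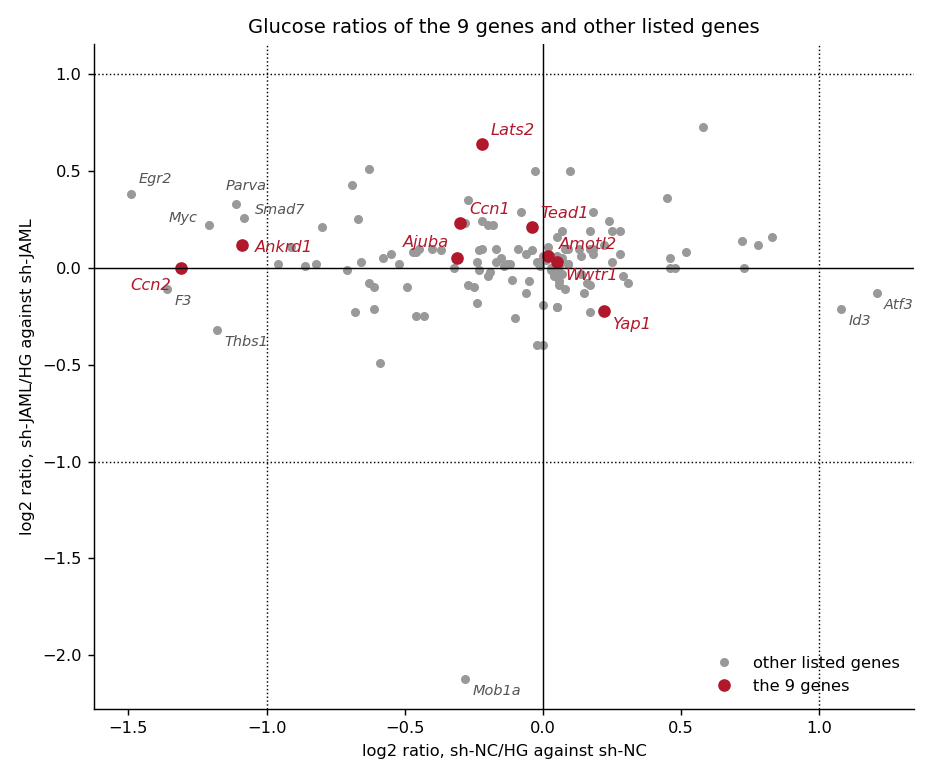
Glucose log2 ratio under the control hairpin (x axis) against that under the Jaml hairpin (y axis) for the 9 members (red) and other listed genes (grey), with dotted lines at 2-fold. Ccn2 and Ankrd1 lie far to the left near zero on the vertical axis, Lats2 is the highest member, and Mob1a lies at the bottom.

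An additive model with terms for glucose and hairpin uses all 4 libraries and leaves 1 residual degree of freedom. Its error draws on the disagreement between the pairs, with information on spread shared across genes, and not on replicates. With edgeR's quasi-likelihood test and Benjamini-Hochberg adjustment, no member was called for glucose, where 1 gene of 14187 was (0.00705%) and 397 had an unadjusted p below 0.05. For Ccn2 the shared glucose difference was -0.66 on the log2 scale (SE 0.36, edgeR adjusted p = 0.927), and for Ankrd1 -0.48 (SE 0.33, edgeR adjusted p = 0.927). For the hairpin, edgeR called 0 genes (0.0% of those tested), with 400 at an unadjusted p below 0.05, while DESeq2 called 48 and limma-voom 0, none of them a member. Among the members Tead1 had the widest shared hairpin difference, -0.48 (SE 0.14, edgeR adjusted p = 0.933, 0.865 to 0.933 over the alternatives), and was lower in 2 of 2 pairs. Tead1 was the 1 member whose unadjusted p for the hairpin fell under 0.05. Yap1, Wwtr1, Ccn1 and Amotl2 were also lower in both hairpin pairs, with edgeR adjusted p = 0.933 each. For glucose, no member had an unadjusted p under 0.05 with edgeR or limma-voom, while Ccn2 did with DESeq2 (DESeq2 Wald test, unadjusted p = 0.0324).

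The rest of the pathway was described by gene lists. Of 25 measured Hippo kinase and upstream genes, Lats2 included, 20 lay below zero for the Jaml hairpin at basal glucose (49.6% of all genes did), with a median of -0.10. None was 2-fold apart for glucose under the control hairpin, where 7.92% of all genes were. The outermost genes there were Wwc2, at 535, 276, 448 and 453 CPM, and Wwc1, at 798, 556, 661 and 671 CPM, which encode KIBRA-type activators of LATS, and the atypical cadherin gene Fat4, at 179, 112, 139 and 119 CPM. All 3 were lower with glucose under the control hairpin. Frmd6, at 179, 247, 159 and 159 CPM, was the highest in that pair (1.38-fold, 1.32 to 1.43). Mob1a, which encodes the LATS co-activator MOB1A, was the exception under the Jaml hairpin: it read 179, 147, 176 and 40.5 CPM and was 4.34-fold lower with glucose under that hairpin (4.03 to 4.68), whereas Mob1b stood between 58.6 and 66.1 CPM. Sav1, the MST scaffold, stood at 237, 176, 222 and 186 CPM, lower under glucose with both hairpins, and shares 25.4% of its exon bases with Atl1.

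Most other YAP/TAZ targets had smaller glucose ratios than Ccn2. Of 16 measured signature genes outside the members, 1 was at least 2-fold lower under glucose with the control hairpin (3.27% of all genes were), 6 lay above and 10 below zero (49.8% of all genes were below), and the median was -0.08. That gene was F3, which encodes tissue factor, at 301, 118, 223 and 207 CPM (2.56-fold lower, 2.45 to 2.68). Nt5e, the ecto-5′-nucleotidase gene, was the highest of the signature in that pair, at 15.1, 24.9, 12.9 and 14.2 CPM. For the Jaml hairpin at basal glucose 5 of the 16 lay above and 11 below zero, where 49.6% of all genes lay below. The median was -0.16, and Ccdc80 stood at 565, 484, 338 and 400 CPM.

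Gene lists for pathways that also act on Ccn2 and Ankrd1 gave mixed values. The TGF-beta/SMAD list holds targets and the pathway genes Tgfb1, Tgfbr1, Tgfbr2 and Smad3. With glucose under the control hairpin, 3 of its 14 measured genes were at least 2-fold lower, as were 3.27% of all genes. Another 1 was as far above, as were 4.65% of all genes, and the list's median was -0.59. Among the lower ones, Thbs1, the thrombospondin gene, read 3580, 1580, 2720 and 2180 CPM (2.27-fold lower, 2.24 to 2.3), and Smad7, the inhibitory SMAD gene, 40.0, 18.9, 33.3 and 40.0 CPM. The one higher was Id3, at 18.1, 38.2, 19.2 and 16.6 CPM. Thbs1, like Ccn2, was highest in sh-NC and lowest in sh-NC/HG. Among 17 measured genes of the serum response factor and MRTF list, Srf, Mrtfa and Mrtfb included, none was 2-fold apart in either glucose pair. Of all genes, 7.92% were under the control hairpin and 2.88% under the Jaml hairpin. Acta2, at 1070, 678, 730 and 743 CPM, had the lowest ratio of this list in the control-hairpin pair. Of 20 immediate-early genes, 10 lay above and 10 below zero for glucose under the control hairpin (49.8% of all genes were below). In that pair 1 was at least 2-fold higher and 2 as far lower, against 4.65% and 3.27% of all genes. Myc, at 28.0, 12.1, 16.1 and 18.7 CPM, was 2.31-fold lower there (2.0 to 2.68), and the stress-response gene Atf3, at 11.3, 26.2, 11.3 and 10.3 CPM, was 2.31-fold higher (1.98 to 2.7). For the Jaml hairpin at basal glucose, 18 of the 20 immediate-early genes lay below zero (median -0.22), where 49.6% of all genes did. In the same pair 14 of 17 genes of the serum response factor and MRTF list lay below zero. So did 12 of 14 genes of the TGF-beta/SMAD list and 16 of 20 actomyosin and focal adhesion genes. Parva, of the actomyosin and focal adhesion list, which encodes the integrin-linked actin adaptor alpha-parvin, stood at 292, 136, 98.6 and 124 CPM, below its sh-NC level by 2.15-fold in the control-hairpin culture with glucose (2.06 to 2.25) and by 2.97-fold in the basal Jaml-hairpin culture (2.82 to 3.12).

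**Figure D5:**
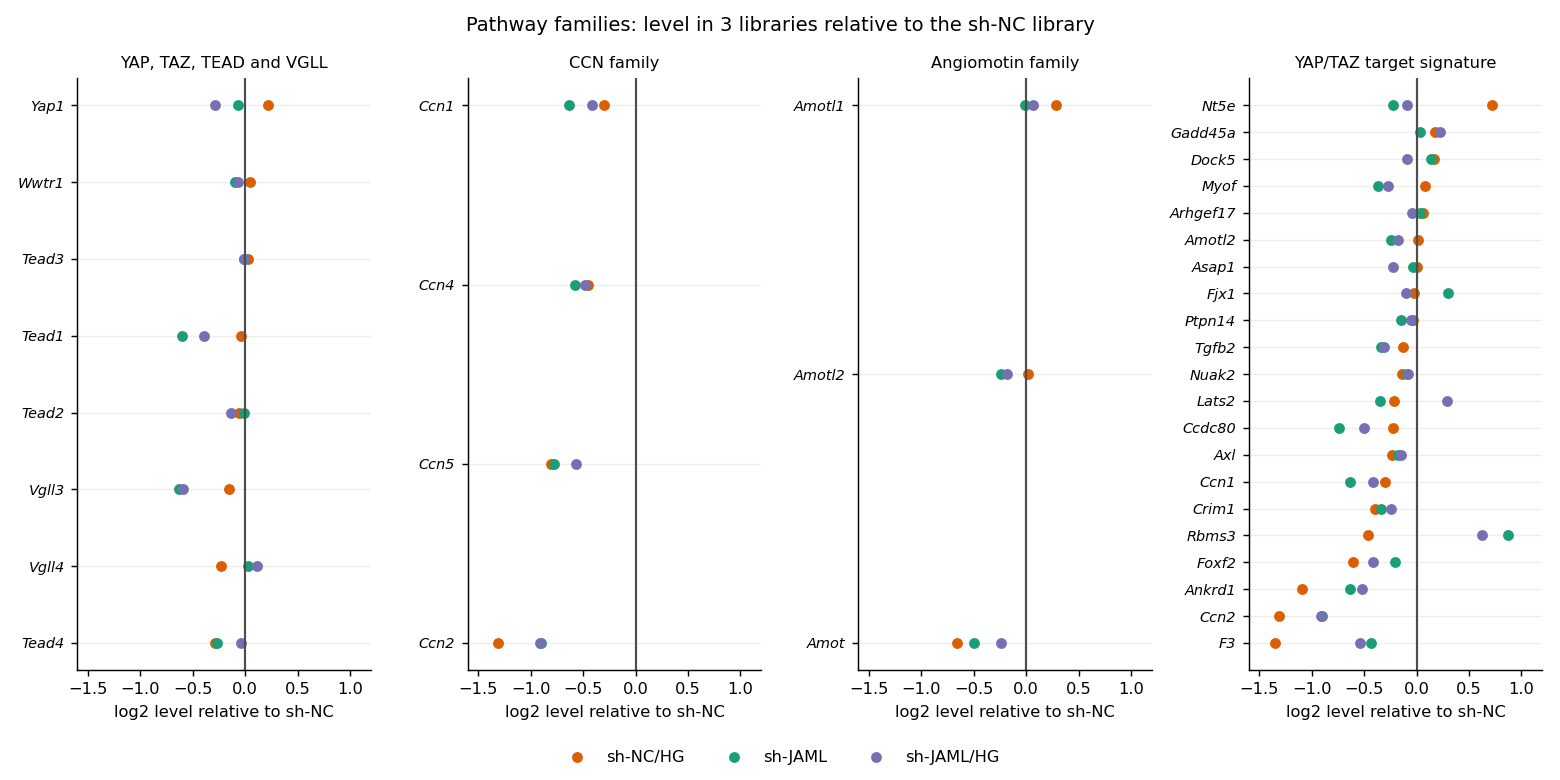
Log2 level in sh-NC/HG, sh-JAML and sh-JAML/HG relative to sh-NC (x axis, 1 coloured point per library) for each measured gene of 4 lists, with the members included. All 4 CCN genes lie below zero in each of these libraries. Within the panel of YAP, TAZ, TEAD and VGLL genes, Tead1 and Vgll3 lie lowest in sh-JAML and sh-JAML/HG.

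Mitochondrial transcripts, a sign of RNA quality, moved with the control-hairpin glucose pair in which Ccn2 and Ankrd1 were lower. All 6 listed genes were lower in that pair's glucose library (median log2 -0.73), but unevenly. The log2 ratio was -0.04 for mt-Co1 and -0.21 for mt-Co2, against -1.17 for mt-Nd1 and -1.56 for mt-Nd2. Their summed level was 10160 CPM in sh-NC/HG against 14220, 14700 and 14930 CPM in sh-NC, sh-JAML and sh-JAML/HG. The mesangial and fibroblast list, of which 5 of 9 genes passed the minimum and Lum and Itga8 were at 0, summed to 1234, 830.1, 873.4 and 880.8 CPM, with Acta2 and Pdgfrb making up most of it. The sum was highest in sh-NC, whereas Dcn (0.428, 6.45, 0.799 and 0.58 CPM) and Des (0.453, 2.32, 0.112 and 0.201 CPM) of the same list were highest in sh-NC/HG, and Col1a1 (16.5, 10.1, 10.9 and 10.8 CPM) was highest in sh-NC. The part of either in the members' ratios was not tested.

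By distance between centred log2 levels over the 4 libraries, among 12977 genes whose mean count reached 100, the genes most like Ccn1 were Maff (0.074), 2510016D11Rik (0.074) and A930024E05Rik (0.088). Those most like Ccn2 were Gm27194 (0.16), Rassf4 (0.20) and Slc35f6 (0.20), and those most like Ankrd1 were Gdnf (0.074), Alkal1 (0.11) and Auts2 (0.11). Ankrd1 ranked 12 among the genes nearest to Ccn2, at a distance of 0.28, whereas Ccn1 ranked 1158, at 0.75. Tead1 was the member nearest to Ccn1, at rank 71 and a distance of 0.21. With 4 libraries, many genes share a pattern, and the distances are given as a description.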

How the data were processed

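RNA sequencing gave 4 libraries, 1 per group. The series' design text speaks of 4 treated and 4 untreated samples, and whether a library pools cultures is not given in the sources used here. Per the labels, libraries followed the TruSeq RNA guide, and CASAVA 1.8, TopHat2 2.0.6 and the build mm10 are named, without their roles, per the submitters' processing notes. The authors deposited an estimated count per gene and library, unscaled. How reads were counted, and whether strand was used, is not given in the sources used here. Neither column of control cells states a hairpin, and the names decided which was taken as sh-NC or sh-NC/HG. Low values piled up at multiples of 4 (1.51 to 2.1 times the neighbouring values), so counting intervals used values divided by 4. A line without a gene was left out.

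Counts were rounded and scaled by TMM (R 4.3.3, edgeR 4.0.16), with a prior count of 1 for log2 ratios and exact 95% Clopper-Pearson intervals, which cover counting error only. The additive model used edgeR's quasi-likelihood test, with DESeq2 1.42.0 and limma 3.58.1 as alternatives. Exons and positions came from GENCODE M21, which matched 55394 genes. Python 3.11.15, numpy 2.4.6, pandas 2.3.3, scipy 1.17.1 and matplotlib 3.10.9 were used for the rest.

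The members and lists were chosen with earlier results of these data known. All members were named, with every TEAD, CCN and angiomotin relative, up to 3 genes with the highest and 3 with the lowest glucose ratio of each list (some are left to counts), and for Ccn1, Ccn2 and Ankrd1 the 3 nearest patterns. Vgll3, Ccdc80, Lats1 and Mob1b were added after their values were seen. Some genes that the rule names are not reported here. Another count minimum, prior count and scaling were tried.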

Additional observations from a re-analysis of the deposited data

Results flagged for a closer look

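For 5 members the glucose ratio pointed in opposite directions under the 2 hairpins, with both counting intervals clear of zero. Each group had 1 library, and the difference was not tested. The share of all genes with such opposite ratios was not counted, so these members are not set apart from other genes. Of all genes, 49.8% lay below zero with glucose under the control hairpin and 49.9% above zero under the Jaml hairpin. Tead1 also had opposite signs, but its control-hairpin ratio (log2 -0.04) was within counting error of zero. The log2 ratio under the control hairpin minus that under the Jaml hairpin was -1.2 for Ankrd1, -0.86 for Lats2, -0.52 for Ccn1 and -0.36 for Ajuba, which were lower with glucose under the control hairpin and higher under the Jaml hairpin. It was 0.44 for Yap1, the reverse order. For Ajuba and Ankrd1 the Jaml-hairpin ratios were small, at log2 0.05 and 0.12.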

How the results depend on the processing

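No paired analysis was possible because each group had 1 library and so no replicate numbers to pair, and no replicate could be left out. The additive model sets each glucose pair within a hairpin and each hairpin pair within a glucose condition. No member's ratio changed sign in any of the 4 pairs under DESeq2 size factors, library totals, a prior count of 5, values divided by 4, no count minimum, or scaling without sh-NC/HG (chosen after seeing the data, for the pairs without that library). Library totals shifted the median of all genes by at most 0.036. They set the log2 ratio in sh-JAML against sh-NC at -0.6 for Ccn1 and -0.57 for Tead1, which put Tead1 short of 1.5-fold. In sh-JAML/HG against sh-NC/HG they set it at -0.08 for Ccn1 and -0.16 for Amotl2. With TMM scaling, a 1.5-fold threshold put 1 member apart in the Jaml-hairpin glucose pair and 4 in the basal hairpin pair, where 2-fold put none. Genes called for glucose numbered 53 with DESeq2, 0 with limma-voom and 0 with no count minimum, against 1 with edgeR's quasi-likelihood test. For the hairpin DESeq2 called 48, against 0. The cause was not tested. The shared glucose difference of Yap1, near zero, turned positive with DESeq2 (0.00075), limma-voom (0.0011) and DESeq2 size factors in edgeR (0.00074). Members' adjusted p ran from 0.859 to 1.0 over all tools. Without replicates, depth limits only the counting error, and variation between cultures is not measured.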
